A study of Rattus norvegicus with 17 samples.

Results

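The genes described here are 6 protein-coding genes of the mitochondrial genome: the cytochrome c oxidase genes Mt-co1 (ENSRNOG00000034234), Mt-co2 (ENSRNOG00000030371) and Mt-co3 (ENSRNOG00000030700), the cytochrome b gene Mt-cyb (ENSRNOG00000031766), and the ATP synthase genes Mt-atp6 (ENSRNOG00000031979) and Mt-atp8 (ENSRNOG00000033299). They were picked by Ensembl identifier and are 6 of the 26402 genes listed for each rat, of which 20910 had a read in at least 1 rat. RNA sequencing was carried out on left hippocampal tissue of the CA1/CA2 region, dissected without the dentate gyrus and the alveus. The rats were virgin males aged 12 months, of the strain spelled Fischer-344 in the methods and Fisher-344 in the labels. Rats of the vehicle group (10 rats, numbered with the prefix G1) were injected with polyethylene glycol (PEG) alone, and those of the ENZ group (7 rats, prefix G2) with Enzastaurin, a PKC-β selective inhibitor, at 25 mg/kg in PEG. All rats were injected subcutaneously once a day for 3 days, swam in the Morris maze on the same days, and were killed after the last trial. The comparison of ENZ with vehicle asks whether the inhibitor is accompanied by a different transcript level in this region.

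Oxidative phosphorylation makes most of the ATP that neurons spend on ion pumping and synaptic transmission. Electrons pass along the respiratory chain through complex III, which contains cytochrome b, to complex IV (cytochrome c oxidase), which hands them to oxygen, and the proton gradient built on the way drives complex V (ATP synthase). Most subunits of these complexes are encoded in the nucleus, but a few core subunits are encoded by mitochondrial DNA. This DNA is transcribed as long precursors that are then cut into shorter messages.

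Values are normalized counts, that is, reads on a gene divided by a size factor for each rat. Each of the 6 genes had reads in all 17 rats. Vehicle rat G1_80 had 33422 reads on genes in all, while the other 9 vehicle rats had 2716777 to 20731523 (median 8710997) and the 7 ENZ rats 3880391 to 11531705 (median 5182015). In rat G1_80 each read counted for 103.4 normalized counts and 8185 genes were detected, against 15900 to 18543 genes in the other 16 rats. Group values below are therefore over 16 rats, 9 vehicle and 7 ENZ, unless rat G1_80 is said to be included. The tissue could not be checked against marker genes, because 0 of the identifiers could be matched to gene symbols in the gene table used.

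The 6 genes together took between 7.50% and 13.9% of all reads on genes across the 16 rats. In the 9 vehicle rats this share ran from 7.50% (rat G1_44) to 11.5% (rat G1_98), with a median of 10.9% and a mean of 9.95% ± 1.71 (SD, n = 9). In the 7 ENZ rats it ran from 8.26% (rat G2_62) to 13.9% (rat G2_152), with a median of 10.03% and a mean of 10.5% ± 1.77 (SD, n = 7). Vehicle rats G1_44 and G1_53, at 7.50% and 7.52%, lay below every ENZ rat, ENZ rat G2_152 lay above every vehicle rat, and the other 13 rats overlapped. The ENZ median was lower than the vehicle median (difference of -0.853 percentage points), whereas the ENZ mean was higher (0.555 percentage points), and both differences were smaller than the SD within either group. With rat G1_80 in the vehicle group the differences were -0.215 for medians and 1.36 for means. The difference in medians also depended on single rats among the 16: it was -0.215 without any 1 of vehicle rats G1_89, G1_98, G1_107 or G1_134, -0.374 without G1_143, -0.4 without any 1 of ENZ rats G2_26, G2_62 or G2_125, and -0.47 without G2_116. The direction of the difference in means rested on a single rat: it was -0.0064 without ENZ rat G2_152, against 0.249 to 0.929 without each of the other rats in turn, in values added after seeing the data. In rat G1_80 the share was 1.86% (623 reads, Wilson 95% interval 1.72% to 2.01%), whereas in the other rats sampling error was slight, as in ENZ rat G2_152 (13.8% to 13.9%) and vehicle rat G1_44 (7.48% to 7.51%). In these bulk samples, fewer cells of a type and less RNA per cell cannot be told apart.

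**Figure D1:**
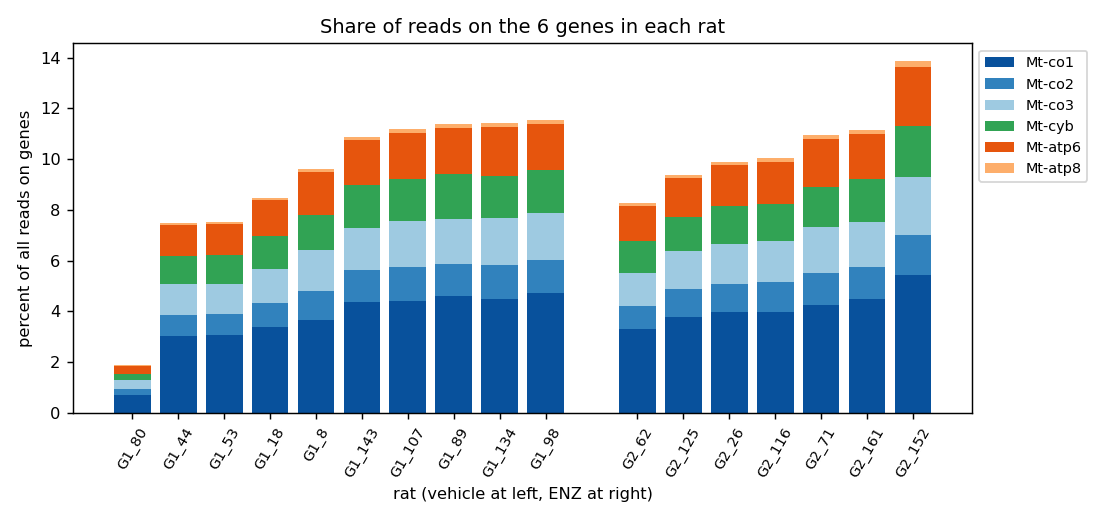
Percent of all reads on genes that fell on each of the 6 genes, stacked, with 1 bar per rat (10 vehicle rats at left, 7 ENZ rats at right, ordered by the summed share). The summed share was 1.86% in vehicle rat G1_80, 7.50% to 11.5% in the other vehicle rats and 8.26% to 13.9% in the ENZ rats.

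Mt-co1 encodes the catalytic subunit of cytochrome c oxidase, which carries the heme and copper centres where oxygen is reduced. In the 9 vehicle rats it ran from 157155 (rat G1_44) to 254883 (rat G1_98) normalized counts, with a median of 232071 and a mean of 210418 ± 39805 (SD, n = 9). In the 7 ENZ rats it ran from 170853 (rat G2_62) to 303066 (rat G2_152), with a median of 212092 and a mean of 223459 ± 41306 (SD, n = 7). Vehicle rats G1_44 and G1_53 were below every ENZ rat, only ENZ rat G2_152 was above every vehicle rat, and 2 of 7 ENZ rats exceeded the vehicle median. The log2 fold change, ENZ over vehicle, was 0.09 (standard error 0.18, 95% interval -0.29 to 0.47), or 1.07-fold, with p = 0.512 in a two-sided exact permutation test over 11440 assignments of the rats. Reads on Mt-co1 alone made up 3.04% to 4.72% of the library in vehicle rats and 3.32% to 5.42% in ENZ rats, more than on any other gene by the mean over the 16 rats. Such read counts are not corrected for gene length, so they do not rank transcript levels between genes.

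Mt-co2 encodes the subunit that accepts electrons from cytochrome c. It ran from 42279 (rat G1_44) to 69975 (rat G1_107) in vehicle rats, with a median of 67128, and from 46131 (rat G2_62) to 90189.9 (rat G2_152) in ENZ rats, with a median of 61729 normalized counts. The vehicle values were uneven, with rats G1_18, G1_44 and G1_53 well below the other 6, and 3 of 7 ENZ rats exceeded the vehicle median. Its log2 fold change was 0.12 (95% interval -0.21 to 0.45, exact permutation p = 0.447). Mt-co3, which encodes the third core subunit of the oxidase, ran from 59861 (rat G1_53) to 99640 (rat G1_98) in vehicle rats, with a median of 89382, and from 67574 (rat G2_62) to 126732 (rat G2_152) in ENZ rats, with a median of 86125. The same rats stood at the ends of both groups as for Mt-co2, except that vehicle rat G1_53 replaced rat G1_44 as the lowest and rat G1_98 replaced rat G1_107 as the highest vehicle rat. Its log2 fold change was 0.11 (95% interval -0.22 to 0.44, exact permutation p = 0.461).

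Mt-cyb encodes cytochrome b, the subunit of complex III in which ubiquinol is oxidized. It ran from 58216 (rat G1_44) to 95132 (rat G1_89) normalized counts in vehicle rats, with a median of 87357 and a mean of 79033 ± 14502 (SD, n = 9). In ENZ rats it ran from 64459 (rat G2_62) to 112557 (rat G2_152), with a median of 78709 and a mean of 83155 ± 15591 (SD, n = 7). The groups overlapped, with 2 vehicle rats below every ENZ rat and 1 ENZ rat above every vehicle rat, as for the oxidase genes, and 2 of 7 ENZ rats exceeded the vehicle median, as for Mt-co1. The log2 fold change was 0.08 (standard error 0.15, 95% interval -0.24 to 0.39; exact permutation p = 0.583). This was the smallest of the 6 fold changes, and without ENZ rat G2_152 it was -0.00022.

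Mt-atp6 encodes a subunit of the membrane part of ATP synthase that forms the path for protons. It ran from 60899 (rat G1_53) to 102435 (rat G1_134) normalized counts in vehicle rats, with a median of 95286 and a mean of 86482.5 ± 16400.1 (SD, n = 9). In ENZ rats it ran from 70851 (rat G2_62) to 131445 (rat G2_152), with a median of 87113 and a mean of 93698 ± 19166 (SD, n = 7). Vehicle rats G1_44 and G1_53 were again below every ENZ rat, and 3 of 7 ENZ rats exceeded the vehicle median. The log2 fold change was 0.12 (standard error 0.16, 95% interval -0.21 to 0.45; exact permutation p = 0.431).

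Mt-atp8 encodes a small membrane subunit of the same enzyme, and its coding sequence overlaps the start of Mt-atp6. Whether reads in the overlap were counted for either gene is not given in the sources used here, so the counts of both are uncertain. In vehicle rats Mt-atp8 ran from 4092 (rat G1_44) to 8841 (rat G1_98) normalized counts, with a median of 6754 and a mean of 6693 ± 1986 (SD, n = 9). In ENZ rats it ran from 5246 (rat G2_62) to 12202 (rat G2_152), with a median of 7137 and a mean of 7653 ± 2242 (SD, n = 7). It was the only gene of the 6 whose ENZ median was above the vehicle median, with 5 of 7 ENZ rats above that median and 3 vehicle rats (G1_18, G1_44 and G1_53) below every ENZ rat. Its log2 fold change was 0.21 (standard error 0.19, 95% interval -0.19 to 0.60), or 1.15-fold (0.879 to 1.52), with an exact permutation p of 0.341.

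**Figure D2:**
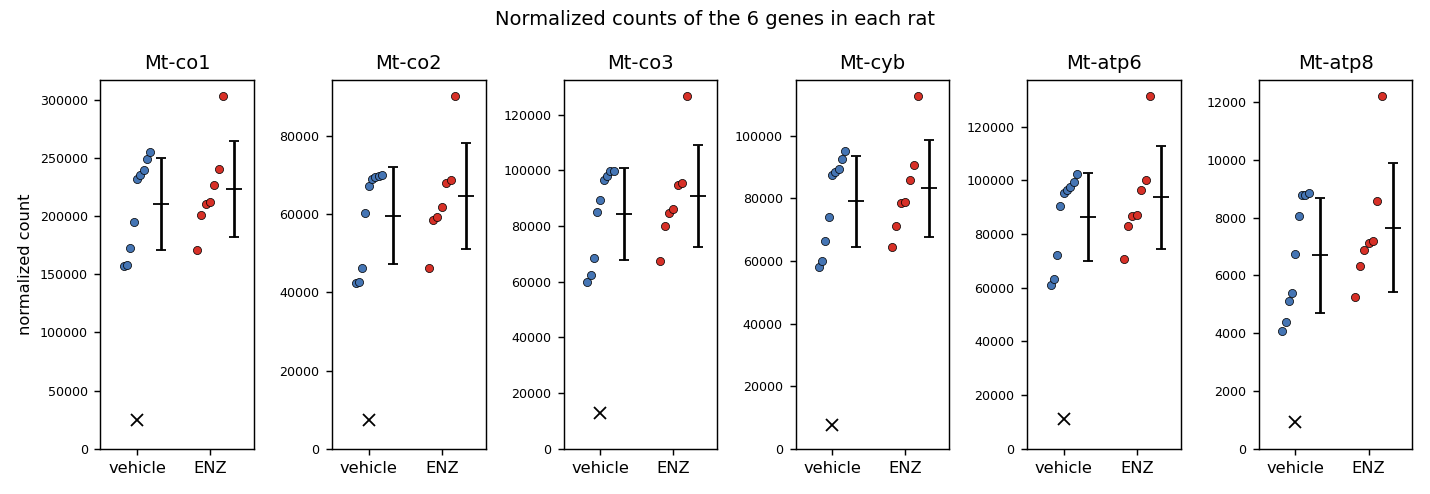
Normalized counts of the 6 genes in each rat, with 9 vehicle rats (blue), 7 ENZ rats (red), the mean ± SD of each group beside its points, and vehicle rat G1_80 as a cross that is left out of the mean. ENZ rat G2_152 was the highest rat for each gene, and the groups overlapped for all 6.

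Across all genes, limma was fitted to log2(normalized count + 1) for the 13853 genes with a median of at least 5, and p-values were adjusted by Benjamini-Hochberg. None of the 6 genes had an adjusted p-value under 0.05 (adjusted p = 0.99979 for each by limma), and 0 of 13853 genes did (0%). The edgeR quasi-likelihood test and the DESeq2 Wald test on recovered whole reads also gave 0 genes. At an unadjusted p-value under 0.05, limma gave 324 genes (2.34%), edgeR 338 and DESeq2 241, and 0 of the 6 genes was among them with any of these tools. The log2 fold changes were above 0 for 6 of 6 genes by limma, with a median of 0.11, while over all genes tested the median was -0.0043 and 48.1% were above 0. These directions rest on group means, since the medians of 5 of the 6 genes were lower in ENZ. Under quantile normalization each value depends on rank alone, so Mt-co1, first in each of the 16 rats, was at 0 by construction. Mt-co2 was at -0.020 there. As it ranked 5 by mean count, this difference reflects changes of rank and does not decide its direction. Mt-atp6, Mt-co3 and Mt-cyb ranked 2 to 4 and are limited in the same way. The intervals of the 6 genes reached from 0.819-fold (Mt-co1) to 1.52-fold (Mt-atp8) in the limma fit to 16 rats, and their width depended on the fit. With no filter, the interval of Mt-co1 was 0.653- to 1.74-fold around the same fold change (standard error 0.34 in place of 0.18). With 17 rats it was 0.638- to 2.72-fold. The limma standard error also draws on a mean-variance trend, not on the spread of the gene alone. It was 0.18 for Mt-co1 and 0.16 for Mt-co2, although their SDs within groups were 0.27 and 0.31. DESeq2 gave standard errors of 0.13 and 0.14. The standard error of Mt-co1 under quantile normalization was 0.06. It does not measure spread between rats, because the gene has the same value there in each rat by construction. The interval of each of the 6 genes held 0 in log2 in each limma fit.

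Rat G1_80 was the lowest rat for each of the 6 genes. It had 239 reads on Mt-co1 (24702.5 normalized counts), 72 on Mt-co2 (7442) and 124 on Mt-co3 (12816). It had 73 reads on Mt-cyb (7545 normalized counts), 106 on Mt-atp6 (10956) and 9 on Mt-atp8 (930.2). These levels were 0.0917 times (Mt-cyb) to 0.146 times (Mt-co3) the median of the other 16 rats. With rat G1_80 included, the vehicle medians were 213481 for Mt-co1, 63672 for Mt-co2, 87132 for Mt-co3, 80700.2 for Mt-cyb, 92909.6 for Mt-atp6 and 6065 for Mt-atp8. The vehicle means were then 191846 ± 69695 for Mt-co1, 54429.7 ± 20201.7 for Mt-co2, 77143 ± 27396 for Mt-co3, 71884 ± 26419 for Mt-cyb, 78929.9 ± 28451.8 for Mt-atp6 and 6117 ± 2613 for Mt-atp8 (SD, n = 10). The ENZ medians stayed below the vehicle medians for 5 of the 6 genes. With rat G1_80 among the vehicle rats, the log2 fold changes were 0.40 for Mt-co1, 0.42 for Mt-co2, 0.38 for Mt-co3, 0.41 for Mt-cyb, 0.41 for Mt-atp6 and 0.49 for Mt-atp8, with standard errors of 0.37 to 0.50. The median over all genes moved as well, to 0.16, with 71.5% of genes above 0, and the median of the 6 genes was 0.25 above it, against 0.12 above it without rat G1_80. The adjusted p-value was 0.786 for each of the 6 genes by limma, and 0 of 13844 genes (0%) passed, with 38 genes at an unadjusted p-value under 0.05. The size of these fold changes and the shift over all genes depended on the tool. With the same 17 rats, edgeR gave 0.20 (Mt-cyb) to 0.28 (Mt-atp8) for the 6 genes and a median of 0.0011 over all genes (50.6% above 0), and DESeq2 gave 0.21 (Mt-cyb) to 0.31 (Mt-atp8) and a median of -0.00073 (49.6% above 0), both added after seeing the data. Exact permutation p-values over 19448 assignments were 0.249 (Mt-atp8) to 0.4658 (Mt-cyb).

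Although the summed level of the 6 genes varied, the proportions among them varied little. As percentages of the reads on the 6 genes, Mt-co1 held 38.2% to 40.9% across the 16 rats, Mt-co2 10.8% to 11.8% and Mt-co3 15.4% to 16.6%. Mt-cyb held 14.2% to 15.5%, Mt-atp6 15.7% to 17.8% and Mt-atp8 1.02% to 1.57%. The coefficient of variation of these percentages was 1.83% to 3.18% for the 5 genes other than Mt-atp8 and 12.7% for Mt-atp8, against 16.7% for the summed share of all reads. Vehicle rat G1_8, the deepest library, had the lowest percentage on Mt-co1 (38.2%) and the highest on Mt-atp6 (17.8%) and Mt-co3 (16.6%). The group medians were 40.1% in vehicle and 40.01% in ENZ for Mt-co1, 15.99% and 16.02% for Mt-co3, 15.03% and 14.9% for Mt-cyb, and 16.3% and 16.5% for Mt-atp6. For Mt-co2 they were 11.2% in vehicle (SD 0.367, n = 9) and 11.6% in ENZ (SD 0.359, n = 7), while the group means were 11.3% and 11.4% and the ranges overlapped. For Mt-atp8 both medians were 1.3%, with ranges of 1.02% to 1.47% in vehicle and 1.2% to 1.57% in ENZ. The difference between groups in these percentages was not tested. In rat G1_80, Mt-co3 held 19.9% (Wilson 95% interval 16.96% to 23.2%) and Mt-cyb 11.7% (9.42% to 14.5%) of the reads on the 6 genes.

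The 6 genes varied together from rat to rat. Over the 15 pairs, Pearson's r of log2(normalized count + 1) across the 16 rats ran from 0.899 (Mt-atp6 with Mt-atp8) to 0.993 (Mt-co1 with Mt-cyb), with a median of 0.974, and Spearman's rho from 0.868 to 0.982. The largest permutation p adjusted over the 15 pairs was 3e-05 for r and 0.0001 for rho, and most unadjusted values were 1e-05, the smallest that 100000 resamples can give. The points of a pair share a library and a size factor. With each rat scaled to its total reads instead, the lowest r was 0.878. Without the 2 rats farthest from the median (among rats G1_44, G1_53 and G2_152, depending on the pair), r was 0.861 to 0.989. Within groups, r was 0.865 to 0.994 in the 9 vehicle rats (largest adjusted exact permutation p = 0.00205) and 0.943 to 0.997 in the 7 ENZ rats (largest adjusted exact permutation p = 0.00556). Spearman's rho was 0.733 to 0.933 in the vehicle rats (largest adjusted exact permutation p = 0.0311). In the ENZ rats rho was 0.821 to 1 (largest adjusted exact permutation p = 0.0341). With rat G1_80 included r was 0.962 to 0.999, and that rat lies far below the others for each gene.

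Pairs differed in how closely they kept to a fixed ratio. The log2 ratio of Mt-co1 to Mt-cyb had an SD of 0.03 across the 16 rats, and that of Mt-co3 to Mt-atp6 0.03 as well, the lowest of the 15 pairs. Ratios among the 5 genes other than Mt-atp8 had SDs of 0.03 to 0.08, whereas those with Mt-atp8 had SDs of 0.17 to 0.21. Mt-atp8 thus kept least closely to the others, with a mean r of 0.927 with the other 5 genes against 0.963 to 0.975 for each of the rest. It also moved over a wider range: regressed on the mean log2 level of the other 5 genes it had a slope of 1.41, while the slopes of the others were 0.839 (Mt-cyb) to 1.01 (Mt-co2). Between its lowest and highest rat Mt-atp8 differed 2.98-fold, and the other genes 1.93-fold (Mt-co1 and Mt-cyb) to 2.16-fold (Mt-atp6). Mt-atp8 had 3954 to 20990 reads per rat in these 16 libraries, so counting error is small beside this range. The uncertain counting of reads in its overlap with Mt-atp6 applies here too, and its part in the wider range was not tested.

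**Figure D3:**
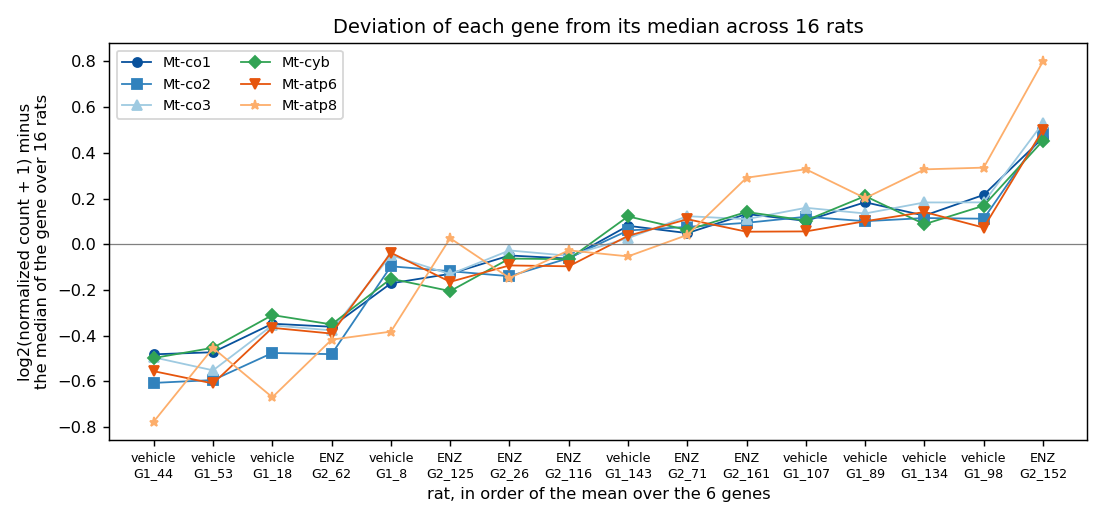
Difference of each gene from its own median, in log2(normalized count + 1), in each of 16 rats ordered by the mean over the 6 genes. The lines of 5 genes run close together, Mt-atp8 departs from them in several rats, and rats of both groups stand near either end.

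The same 4 rats, vehicle rats G1_18, G1_44 and G1_53 and ENZ rat G2_62, were the lowest 4 for each of the 6 genes. Relative to the median rat, their mean log2 level over the 6 genes was -0.41 (G1_18), -0.56 (G1_44), -0.51 (G1_53) and -0.39 (G2_62). ENZ rat G2_152 was the highest rat for each of the 6 genes, at 0.55 above the median rat. A gap of 0.36 separated it from the next rat, vehicle rat G1_98, and a gap of 0.25 separated the lowest 4 from vehicle rat G1_8, within a whole range of 1.11. Leaving out rat G2_152 or rat G2_62 moved the fold changes the most: Mt-co1 was at 0.015 without rat G2_152 and at 0.15 without rat G2_62, and Mt-atp8 at 0.088 and 0.29.

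Within groups, the 6 genes varied more between rats than most genes with high counts. The SD of log2(normalized count + 1) within groups was 0.27 for Mt-co1, 0.31 for Mt-co2, 0.29 for Mt-co3, 0.27 for Mt-cyb, 0.29 for Mt-atp6 and 0.42 for Mt-atp8. Its median was 0.20 over all 13853 genes tested and 0.13 over the 1386 with the highest mean counts. Among those 1386 genes, 91.4% (Mt-cyb) to 97.98% (Mt-atp8) had a smaller SD than the gene named. As the 6 genes share each rat's deviation, these are not separate observations of spread.

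Depth was compared with the summed share, as 3 relations. Over the 16 rats, the share and log10 of the reads on genes had r = -0.391 (permutation p = 0.135) and rho = -0.353 (permutation p = 0.181), with an adjusted p of 0.203 for r. Without vehicle rats G1_8 and G1_134, the farthest in depth, r was -0.367 (permutation p = 0.196). Within groups r was -0.547 in the 9 vehicle rats (rho = -0.467; exact permutation p = 0.129 and 0.213, adjusted 0.203 for r) and -0.034 in the 7 ENZ rats (rho = 0.107; exact permutation p = 0.944 and 0.84, adjusted 0.944 for r). The labels give no sequencing batch or date, so values within batches could not be given. In vehicle rat G1_44, the lowest in summed share, a single other gene held 1.86% of the reads, against 4.25e-05% to 0.00311% in the other 15 rats apart from rat G1_80, where it had 0 reads. Its part in the low share of rat G1_44 was not tested.

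Among 9647 other genes with a median of at least 50, the 2 whose pattern across the 16 rats was most like the mean log2 level of the 6 genes were ENSRNOG00000030644 (r = 0.991) and ENSRNOG00000029971 (r = 0.981). They ranked 8 and 9 of all genes by mean normalized count. The most opposite patterns were those of ENSRNOG00000010474 (r = -0.897) and ENSRNOG00000012597 (r = -0.858). These values describe the 16 rats, and the median r over the 9647 genes was -0.044, with 18 genes at 0.9 or higher.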

How the data were processed

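Rats were grouped by the treatment in their labels (10 vehicle, 7 ENZ, each a separate animal), and 0 columns were without a sample. The methods name 1 more ENZ rat, not analysed here. They also say that outlier samples found by principal components were removed before the study's own test, without naming them. The paper gives its study size for sequencing as 7 per group. On that number, not all of the 9 vehicle rats used here were in the study's test, and which were is not given. Whether the 7 ENZ rats used here are those of the study's test is not given either. According to the submitters' notes and the methods, reads were trimmed with AlienTrimmer, aligned to rn5 with STAR (2.4.0a) and counted per gene with featureCounts (1.4.4). The annotation, the strand setting and the handling of reads with several matches are not given in the sources used here. Nuclear copies of mitochondrial sequence could therefore share reads with the 6 genes, so their counts are uncertain in this respect, which was not tested. The deposited values are a normalized signal: the authors divided each gene's reads by the size factor of the rat. Whole reads were recovered from the value of 1 read in each rat, and 100% of values above 0 came out whole within 0.01 of a read.

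The groups were compared with limma (3.58.1, in R 4.3.3), using a mean-variance trend and no covariate, in 16 rats and again in 17. Values entered as log2(normalized count + 1), and genes needed a median of at least 5. The pseudocount of 1 has little bearing on the fold changes of the 6 genes. The standard error of Mt-co1 was 0.17, 0.18 and 0.19 with pseudocounts of 0.1, 1 and 5. Single genes were compared by two-sided exact permutation tests, and correlations by two-sided permutation tests with 100000 resamples (exact within groups), using numpy 2.4.6 and scipy 1.17.1 under Python 3.11.15. Wilson 95% intervals cover counting error only. The scripts were tested on simulated data. Alternatives were pseudocounts of 0.1 and 5, no filter or a median of at least 50, TMM, quantile and total scaling, totals without the 6 genes, edgeR (4.0.16), DESeq2 (1.42.0), leaving out each rat, and, for the share, group means and the other genes as denominator. Correlations were also computed with group means subtracted. The edgeR and DESeq2 fits with all 17 rats, and the difference in mean share with each rat left out, were added after seeing the data.

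The 6 genes, the lists and the leaving out of rat G1_80 were chosen with earlier results of these data known. The genes named are the 6 and the 2 most and 2 least like their mean pattern. The symbols of the 6 came with the list of identifiers and could not be checked against a gene table. Lists of other oxidative phosphorylation genes and of cell type markers could not be used, since the gene table (GRCr8) matched 0 identifiers, and no gene lengths were at hand. Rats far from their group were found with Dixon's 95% critical value.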

Additional observations from a re-analysis of the deposited data

Results flagged for a closer look

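In 42 combinations of a measure and a group of rats, the gap between the most extreme rat and its neighbour was compared with the range of the group. It was larger than Dixon's 95% critical value in 10 combinations, and all 10 were vehicle rat G1_80 among the 10 vehicle rats. Chance gives about 1 in 20 for separate measures, but many of these measures vary together and the few reads of this rat were known beforehand, so the 10 describe a single rat and their number is not set against chance. Its log2 level was 14.59 for Mt-co1 (nearest other vehicle rat 17.26), 12.86 for Mt-co2 (15.37) and 13.65 for Mt-co3 (15.87). It was 12.88 for Mt-cyb (15.83), 13.42 for Mt-atp6 (15.89) and 9.86 for Mt-atp8 (12.00). The summed share of reads was 1.86% (nearest 7.50%) and log10 reads were 4.52 (nearest 6.43). Of its reads on the 6 genes, 19.9% were on Mt-co3 (nearest 16.6%) and 11.7% on Mt-cyb (nearest 14.4%). The Wilson 95% intervals were 16.96% to 23.2% for Mt-co3 and 9.42% to 14.5% for Mt-cyb. The interval of Mt-cyb held the nearest value, and that of Mt-co3 did not. The part of its low depth in these values was not tested. No ENZ rat, and no vehicle rat once rat G1_80 was left out, stood apart in this way for any of the 14 measures.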

How the results depend on the processing

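The number of the 6 genes with an adjusted p-value under 0.05, and that of all genes, was 0 under each of 29 alternatives, with limma, edgeR or DESeq2 adjusted p-values of 0.786 to 1 for the 6 genes. Mt-co1, Mt-co3, Mt-atp6 and Mt-atp8 had log2 fold changes of 0 or above throughout. Mt-co2 was at -0.020 under quantile normalization, where Mt-co1, the gene with the most reads in each of the 16 rats, is at 0 by construction. There Mt-co2, which ranked 5 by mean count, can move only by changing rank, so its direction is not decided. Leaving out each rat in turn gave -0.00022 (without ENZ rat G2_152) to 0.13 (without ENZ rat G2_62) for Mt-cyb. For the other genes it gave 0.015 to 0.15 (Mt-co1), 0.036 to 0.20 (Mt-co2), 0.026 to 0.18 (Mt-co3), 0.032 to 0.18 (Mt-atp6) and 0.088 to 0.29 (Mt-atp8), with the same rats at either end. Genes with an unadjusted p-value under 0.05 numbered 324, against 38 with all 17 rats, 625 (of 20796 tested) with no filter, 201 (of 9653) with a median of at least 50, 270 with edgeR on 17 rats and 56 with DESeq2 on 17 rats, the last 2 added after seeing the data. Of the 324, 172 were lower in ENZ (46.9% higher), against 264 of 348 (24.1% higher) with rats scaled to total reads, 220 of 334 (34.1%) to totals without the 6 genes, 147 of 340 (56.8%) with quantile normalization, and 15 of 38 (60.5%) with 17 rats. The causes of these changes were not tested. The difference in median share was -1.01 to -0.215 percentage points with each rat left out in turn (-0.215 without G1_89, G1_98, G1_107 or G1_134), -1.06 relative to the other genes, and 0.555 with means (-0.0064 to 0.929 with each rat left out). The widest interval of the 6 genes was that of Mt-co1, at 0.653- to 1.74-fold with 16 rats (no filter) and 0.638- to 2.72-fold with 17. The lowest r of the 15 pairs was 0.859 to 0.962. According to the methods, the rats swam in squads that were balanced for treatment, but the labels used here do not give the squad of each rat. No blocked analysis by squad was therefore possible, and no paired analysis either, because the groups share no rat numbers.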
